A study of Mus musculus with 12 samples.

Results

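Bone morphogenetic protein (BMP) signaling and the Id genes were followed through RNA-seq of mouse peri-infarct cortex, with 10 genes of the 25238 in the count table: the ligands Bmp4 and Bmp6, the type I receptor Bmpr1a, the secreted antagonist Nbl1, the inhibitory Smads Smad6 and Smad7, and Id1, Id2, Id3 and Id4. These 10 genes were chosen by family and role, with fold changes from these same 12 libraries already known, so their levels and their differences between groups are given as a description, with no p-value for a member's difference. The Veh and ISP libraries came from male mice 10 to 12 weeks old whose left middle cerebral artery was occluded for 45 min (tMCAo), 4 mice in each group. The strains named for tMCAo were C57BL/6J and the Nestin-creER-Ai9 line, and which of them gave the RNA was not stated. ISP mice received intracellular sigma peptide, a membrane-permeable peptide that binds the proteoglycan receptor PTPσ, at 1 μg/g/day from day 1. Veh mice received 5% DMSO in saline according to the methods and the labels, while the results text speaks of a scrambled peptide. Cortex of both groups was micro-punched at day 14, so that each library mixes neurons, glia and vessels in unknown proportions. The remaining 4 libraries carry the label control and the same tissue name, and neither a surgery nor a treatment is given for them, so they are compared under that label alone.

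BMPs are dimeric ligands that bring type I and type II receptor kinases together. The active type I receptor phosphorylates Smad1, Smad5 and Smad9, which enter the nucleus with Smad4 and switch on target genes, the Id genes first among them. Id proteins carry a helix-loop-helix without the DNA-binding region, so they pair with E proteins and keep other bHLH factors off DNA. In brain, BMP signaling and Id proteins are known for their part in astrocyte formation and in holding precursor cells undifferentiated.

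The promoters of the Id genes hold GC-rich elements to which BMP-activated Smads are known to bind, and the windows of Id2, Id3, Id4 and Nbl1 are shown as those of 3 target genes of the pathway and of its secreted antagonist. Each sequence is the 250 bases before the RefSeq start site (GRCm38.p6), written 5′ to 3′ on the gene's strand, with the letters GGCGCC in capitals.
Id2, chr12:25096093-25096342, minus strand: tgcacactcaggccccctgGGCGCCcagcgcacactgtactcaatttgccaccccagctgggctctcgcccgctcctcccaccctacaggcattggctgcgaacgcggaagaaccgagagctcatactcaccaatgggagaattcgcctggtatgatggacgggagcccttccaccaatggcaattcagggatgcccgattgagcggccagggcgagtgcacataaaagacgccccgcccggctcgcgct
Id3, chr4:136143572-136143821, plus strand: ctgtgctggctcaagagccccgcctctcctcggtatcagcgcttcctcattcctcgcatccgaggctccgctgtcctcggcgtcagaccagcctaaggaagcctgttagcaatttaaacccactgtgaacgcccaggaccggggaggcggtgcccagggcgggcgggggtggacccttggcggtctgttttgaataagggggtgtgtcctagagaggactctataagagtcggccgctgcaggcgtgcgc
Id4, chr13:48260866-48261115, plus strand: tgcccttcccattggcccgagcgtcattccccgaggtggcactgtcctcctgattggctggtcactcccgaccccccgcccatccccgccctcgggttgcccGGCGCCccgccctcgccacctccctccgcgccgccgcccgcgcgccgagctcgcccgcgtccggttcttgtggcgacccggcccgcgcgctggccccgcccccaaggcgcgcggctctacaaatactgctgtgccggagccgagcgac
Nbl1, chr4:139092971-139093220, minus strand: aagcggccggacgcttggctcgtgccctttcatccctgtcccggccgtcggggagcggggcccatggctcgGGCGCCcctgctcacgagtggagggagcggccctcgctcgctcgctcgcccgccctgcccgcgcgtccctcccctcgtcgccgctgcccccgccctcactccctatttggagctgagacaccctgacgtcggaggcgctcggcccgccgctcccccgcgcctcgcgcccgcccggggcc
GGCGCC, which reads the same on both strands, occurred once in the windows of Id2 (at -231 from the start site), Id4 (-148), Nbl1 (-179) and Bmpr1a (-198), and in none of those of Id3, Bmp4, Bmp6 and Smad6. Of all 32851 promoter windows of this length, 9.6% held it. The E-box CANNTG, the letters that bHLH factors read, was found in the windows of Id2, Bmp4 and Bmp6 and in 66.2% of all windows, and TATAAA, searched on both strands, was in none of the 8 windows and in 12.4% of all. Of the members, 8 of 10 had an entry, and Id1 and Smad7 did not. In GENCODE release M21 on GRCm38, Id1 lies at chr2:152736251-152737410, Id2 at chr12:25093799-25097140, Id3 at chr4:136143497-136145755 and Id4 at chr13:48261228-48266026. Nbl1 lies on the same chromosome as Id3 (chr4:139082284-139092993), Bmp4 and Bmpr1a share a chromosome (chr14:46383520-46390669 and chr14:34410734-34503341), and Bmp6 is on that of Id4 (chr13:38345107-38500302). Smad6 spans chr9:63953076-64022059. All are protein-coding, and reads were counted over their exons.

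Total counts per library ran from 17442711 to 29845629. Levels are read counts scaled to the library's total (CPM), with TMM factors over the 12 libraries, and a log2 fold change is the fitted ratio of 2 groups with its standard error (SE). At this depth Id2 had 2096 to 3100 reads in a library, whereas Smad6 had 12 to 51, Bmp4 19 to 103 and Bmp6 22 to 292, so that for these 3 low genes counting error weighed more. All 10 members passed the filter on low counts in every comparison. Markers of excitatory cortical neurons, the tissue's main cells, summed to at least 6885 CPM in each library. Some libraries stood apart: Veh 6 and ISP 18 in choroid plexus markers, Veh 10 in meningeal markers, and ISP 14 and ISP 18 in reactive astrocyte and activated microglia markers, and differences between groups that rest on them are given with and without them. Per kb of exonic length, the scale on which genes can be set beside each other, Id2 led in each group, with 42.1 ± 1.98 CPM per kb in control (SD, n = 4), 48.6 ± 2.01 with Veh and 45.04 ± 5.34 with ISP. Nbl1 was next in control (19.4 ± 5.66) and with Veh (23.9 ± 5.74), with no overlap with the genes beside it. With ISP, Id3 (15.4 ± 9.18), Nbl1 (15.4 ± 1.74) and Id4 (14.5 ± 3.19) overlapped. Bmpr1a and Smad7, between 5.45 and 6.70 on average, overlapped in each group, and Bmp4, Bmp6 and Smad6 were lowest, between 0.366 and 1.44.

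**Figure D1:**
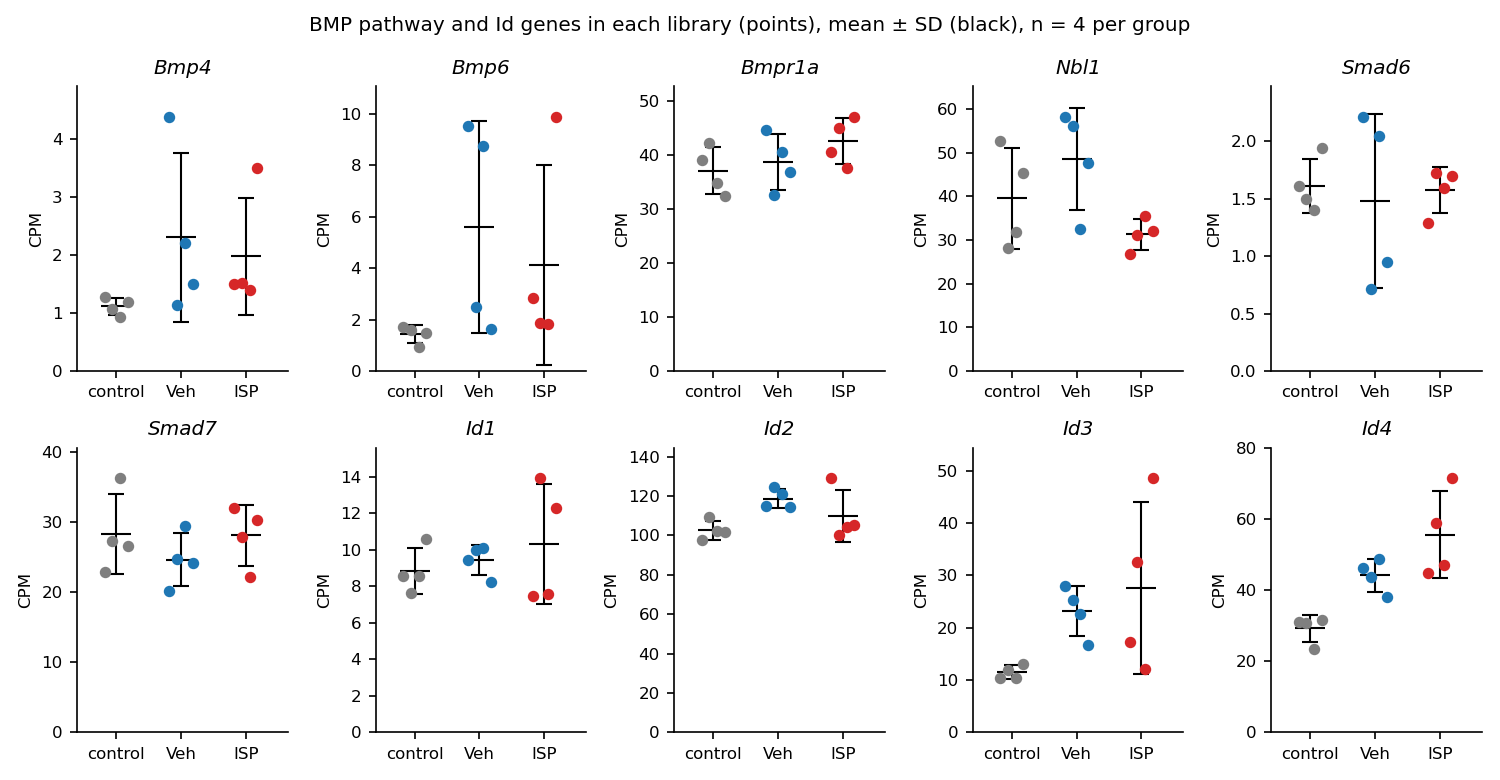
Level of each of the 10 genes (CPM after TMM scaling, linear axis from 0) in the libraries labelled control, Veh and ISP, 1 point per mouse, with the mean and SD in black. Id3 and Id4 of the Veh libraries lie above all control points, Bmp6 is between 8.76 and 9.90 CPM in Veh 6, Veh 10 and ISP 18 and at 2.83 or less in the other libraries, and Nbl1 of the ISP libraries is spread less than in the other groups.

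The ligands were low in most libraries and high in a few. Bmp6, a BMP best known for iron regulation through hepcidin, was at 1.72, 1.59, 0.935 and 1.47 CPM in control 19, 21, 36 and 38. It reached 2.49, 8.76, 1.63 and 9.53 CPM in Veh 2, 6, 8 and 10, and 2.83, 1.85, 1.83 and 9.90 CPM in ISP 12, 14, 16 and 18. Veh 6, Veh 10 and ISP 18 stood far above the other 9 libraries, and the Veh range reached down into the control range while the ISP range did not. The fitted log2 fold change was 1.99 ± 0.50 (SE) for Veh against control, 1.53 ± 0.53 for ISP against control and -0.44 ± 0.65 for ISP against Veh. Bmp4, a ligand of embryonic patterning, was at 1.27, 1.07, 0.935 and 1.18 CPM in the control libraries. It was at 1.13, 2.21, 1.497 and 4.39 CPM in Veh 2, 6, 8 and 10 and at 1.49, 1.52, 1.399 and 3.49 CPM in ISP 12, 14, 16 and 18. Veh 10 and ISP 18 were again the highest, and all ISP values, but not all Veh values, lay above control. The log2 fold changes of Bmp4 were 1.06 ± 0.41, 0.83 ± 0.38 and -0.22 ± 0.47 in the same order. Exons of Bmp4 and Bmp6 share 3.96% and 5.74% of their length with Gm15217 and Txndc5 on the opposite strand, and since no strand-marking step is described, reads there could not be told apart.

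The libraries with high ligand levels also had high levels of markers of tissue outside the cortex. Markers of choroid plexus and ependyma (6 genes, among them Ttr, Kl and Folr1) summed to 4.24 to 6.33 CPM in control, 4.90 to 1691 CPM with Veh and 5.79 to 1178 CPM with ISP. The high values were those of Veh 6 and ISP 18, whose mean log2 deviation from the 12-library mean was 6.49 and 6.43, against -2.22 to -0.36 in the other 10, and Ttr, Clic6 and Ccdc153 were at 0 in at least 1 library of each group. Markers of fibroblasts and meninges (all 7 in the table, among them Col1a1, Dcn and Lum) summed to 27.9 to 31.1 CPM in control, 31.1 to 247 CPM with Veh and 26.8 to 124 CPM with ISP, none of them at 0, and were highest in Veh 10 and ISP 18, at 2.51 and 1.23 log2 units above the 12-library mean. The part of these cells in the Bmp4 and Bmp6 values was not tested. Without Veh 6 and Veh 10, Bmp6 differed between Veh and control by 0.52 ± 0.42 on the log2 scale. Without ISP 18, the difference between ISP and control was 0.60 for Bmp6 and 0.39 for Bmp4. Without Veh 10 alone, Bmp4 stood 0.55 above control in the Veh libraries, and the ISP minus Veh difference of Bmp4 turned to 0.29. The ISP minus Veh difference of Bmp6 ran from -1.37 without ISP 18 to -0.0646 without Veh 10. In bulk tissue, fewer cells of a type and less RNA per cell cannot be told apart.

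Bmpr1a, also called ALK3, is the main type I receptor for Bmp2 and Bmp4. It ran from 32.4 to 42.3 CPM in control, from 32.6 to 44.7 CPM with Veh and from 37.6 to 47.1 CPM with ISP, with overlap in every comparison. Its log2 fold changes were 0.07 ± 0.11 for Veh against control, 0.20 ± 0.11 for ISP against control and 0.14 ± 0.11 for ISP against Veh, and the first turned to -0.01 when Veh 10 was left out.

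Nbl1, also called DAN, is a secreted protein that binds BMPs and keeps them from their receptors. It was at 52.7, 28.2, 31.7 and 45.3 CPM in control 19, 21, 36 and 38. It was at 56.0, 32.5, 47.7 and 58.2 CPM in Veh 2, 6, 8 and 10, and at 26.8, 31.1, 35.5 and 31.9 CPM in ISP 12, 14, 16 and 18. The Veh libraries 2, 8 and 10 lay above all 4 ISP libraries and Veh 6 lay among them, while the control libraries were split between both levels. The log2 fold change was -0.63 ± 0.16 for ISP against Veh, 0.30 ± 0.21 for Veh against control and -0.34 ± 0.18 for ISP against control. The ISP minus Veh difference ran from -0.79 without Veh 6 to -0.54 without Veh 10.

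Nbl1 moved with the cortical layer markers in all groups. The 6 upper-layer genes (among them Cux2, Calb1 and Lamp5) summed to 388 to 868 CPM in control, 426 to 876 CPM with Veh and 387 to 596 CPM with ISP, and none was at 0. Over the 12 libraries, log2 CPM of Nbl1 and the mean of this list had a Pearson r of 0.884 (permutation p = 0.00058, two-sided, adjusted p = 0.00663 over the 160 relations of 10 genes with 16 lists) and a Spearman rho of 0.832 (permutation p = 0.00122, adjusted p = 0.0123). The permutations moved libraries across groups, so their p-values also draw on differences between groups. Of the 160 relations, 44 had an adjusted permutation p under 0.1 for Pearson r. Without control 36 and Veh 10, the 2 libraries farthest from the list's median, r was 0.877. Within the groups, 4 libraries each, r was 0.742 in control, 0.972 with Veh and 0.828 with ISP. With the markers of deep layers, r was -0.897 (permutation p = 0.00019, adjusted p = 0.00338), rho was -0.797 (permutation p = 0.00269, adjusted p = 0.0179), r was -0.841 without control 19 and Veh 10, and r was -0.936, -0.989 and -0.634 within control, Veh and ISP. Veh 6, the Veh library with Nbl1 at the ISP level, was also the only Veh library below the 12-library mean in upper-layer markers, at -0.41 on the log2 scale, where Veh 2, 8 and 10 were at 0.43, 0.41 and 0.69. The ISP libraries 12, 14, 16 and 18 were at -0.55, -0.40, 0.06 and -0.50. Nbl1 was lower where oligodendrocyte markers were higher. These 9 genes, none at 0, summed to 3265 to 4961 CPM in control, 2776 to 6992 with Veh and 4727 to 11400.0 with ISP, and all 9 had a positive ISP minus Veh difference, 7 with an unadjusted p under 0.05 and 0 called by edgeR, DESeq2 or limma-voom. With this list Nbl1 had a Pearson r of -0.796 (permutation p = 0.00222, adjusted p = 0.0178) and a Spearman rho of -0.762 (permutation p = 0.00534, adjusted p = 0.0316). Pearson r was -0.853 without ISP 18 and Veh 10, and -0.927, -0.989 and -0.39 within control, Veh and ISP. With group means removed, Pearson r of Nbl1 was 0.839 with the upper-layer list, -0.917 with the deep-layer list and -0.75 with the oligodendrocyte list. The part of the layers and of the oligodendrocytes in the ISP minus Veh difference of Nbl1 was not tested.

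Smad7 and Smad6 bind active type I receptors and hold back Smad phosphorylation, and both are themselves targets of the pathway. Smad7, on chr18:75367529-75395935, ran from 22.9 to 36.3 CPM in control, from 20.2 to 29.5 CPM with Veh and from 22.1 to 32.0 CPM with ISP, and Smad6 from 1.402 to 1.94, from 0.712 to 2.22 and from 1.29 to 1.73 CPM. Neither gene had groups without overlap. The log2 fold changes of Smad7 were -0.19 ± 0.15 for Veh against control, -0.01 ± 0.15 for ISP against control and 0.19 ± 0.14 for ISP against Veh. Those of Smad6 were -0.10 ± 0.39, -0.03 ± 0.30 and 0.08 ± 0.41 in the same order, and each turned sign when 1 library was left out (0.11 without Veh 2, 0.06 without control 38 and -0.14 without Veh 2). Smad7 ran opposite to Nbl1 in the layer markers, with a Pearson r of -0.878 with the upper-layer list (permutation p = 0.00013, adjusted p = 0.00297 over the same 160 relations) and a Spearman rho of -0.902 (permutation p = 0.00015, adjusted p = 0.00907). Pearson r was -0.807 without control 36 and Veh 10, -0.933 with group means removed, and -0.957, -0.936 and -0.99 within control, Veh and ISP.

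**Figure D2:**
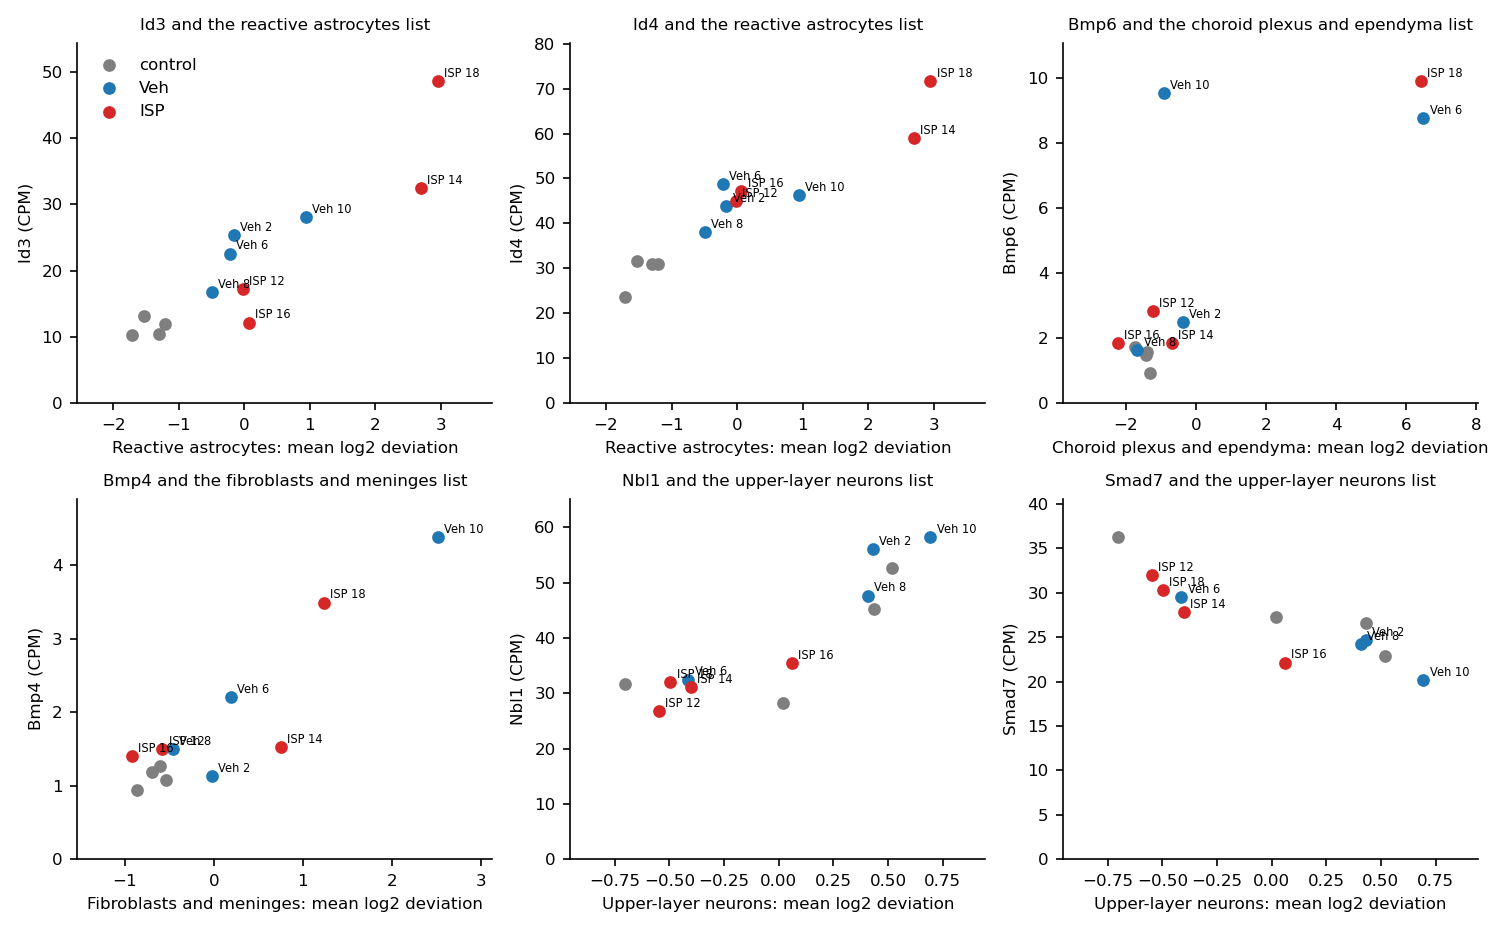
Level of 6 of the genes (CPM, linear axis from 0) against the mean of a marker list (log2 deviation from the mean of the 12 libraries), 1 point per library, with Veh and ISP libraries named. Id3 and Id4 are highest in ISP 18 and ISP 14, where reactive astrocyte markers are highest, Bmp6 is high in Veh 6 and ISP 18 with choroid plexus markers and in Veh 10 without them, and Nbl1 and Smad7 run in opposite directions along the upper-layer list (r = 0.884 and -0.878).

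Among the Id genes, Id3 and Id4 differed from control and Id1 and Id2 differed little. Id3, an early BMP target of vessels and astrocytes, was at 10.5, 12.0, 10.3 and 13.2 CPM in control 19, 21, 36 and 38. It was at 25.3, 22.6, 16.8 and 28.1 CPM in Veh 2, 6, 8 and 10, and at 17.3, 32.5, 12.2 and 48.6 CPM in ISP 12, 14, 16 and 18. Every Veh library lay above every control library, whereas the ISP libraries reached from below the highest control to above the highest Veh library. The log2 fold change of Id3 was 1.02 ± 0.16 for Veh against control and 1.28 ± 0.34 for ISP against control, and for ISP against Veh the SE exceeded the difference (0.26 ± 0.35). ISP 14 and ISP 18 were the highest of all 12 libraries. Without both, Id3 differed by 0.36 ± 0.18 between ISP and control and by -0.66 ± 0.21 between ISP and Veh.

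Id4, which is known in astrocytes and neural stem cells, was at 31.0, 30.9, 23.5 and 31.7 CPM in control 19, 21, 36 and 38. It was at 43.8, 48.8, 38.1 and 46.3 CPM in Veh 2, 6, 8 and 10, and at 45.03, 58.9, 47.1 and 71.7 CPM in ISP 12, 14, 16 and 18. All 8 Veh and ISP libraries were above all 4 control libraries, and ISP and Veh overlapped. The log2 fold changes were 0.61 ± 0.11 for Veh against control, 0.93 ± 0.15 for ISP against control and 0.33 ± 0.14 for ISP against Veh, and the last was 0.19 without ISP 18. Only ISP 14 and ISP 18 lay above all Veh libraries, so the ISP minus Veh difference of Id4 rested on this pair. ISP 12 and ISP 16, at 45.03 and 47.1 CPM, lay within the Veh range and near the Veh mean of 44.25 ± 4.56 CPM (SD, n = 4). Between 2.13% and 4.44% of the exonic length of Id4 is shared with A330033J07Rik and Gm49291 on the opposite strand.

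Id2, the Id gene of highest level and one expressed in neurons as well as glia, was at 97.5, 109, 102 and 102 CPM in the control libraries. It was at 124, 121, 114 and 115 CPM in Veh 2, 6, 8 and 10, and at 129, 100, 104 and 105 CPM in ISP 12, 14, 16 and 18. The Veh libraries were all above control by a small margin, with a log2 fold change of 0.22 ± 0.07, while 3 of the 4 ISP libraries fell within the control range (0.09 ± 0.09) and ISP against Veh was -0.11 ± 0.09. Id1, a classic BMP target in endothelium, was at 8.54, 7.63, 8.54 and 10.6 CPM in control. It was at 9.97, 10.1, 8.26 and 9.43 CPM in Veh 2, 6, 8 and 10 and at 7.47, 13.9, 7.58 and 12.3 CPM in ISP 12, 14, 16 and 18. ISP 14 and ISP 18 were the highest of all 12 libraries and ISP 12 and ISP 16 the lowest, and the log2 fold changes were 0.10 ± 0.15 for Veh against control, 0.23 ± 0.22 for ISP against control and 0.13 ± 0.21 for ISP against Veh. Without ISP 14 and ISP 18, the difference of Id1 turned to -0.23 against control and -0.33 against Veh.

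Taken per kb of exonic length, the 4 Id genes summed to 63.7 ± 2.93 CPM per kb in control, 81.2 ± 5.37 with Veh and 83.8 ± 12.9 with ISP (SD, n = 4 each). The lowest Veh library (73.3) was above the highest control library (66.5), and ISP 12, 14, 16 and 18 were at 80.7, 86.7, 68.4 and 99.5, so that without ISP 14 and ISP 18 one ISP library lay among the Veh values and the other between control and Veh. Within this sum, Id3 took 10.0% ± 0.742 in control, 15.9% ± 2.57 with Veh and 17.5% ± 8.08 with ISP, and Id4 took 11.9% ± 1.35, 14.1% ± 0.855 and 17.2% ± 1.85. Id2 took 66.1% ± 2.60, 60.0% ± 2.99 and 54.8% ± 11.0, and Id1 kept 10.0% to 11.9% on average.

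**Figure D3:**
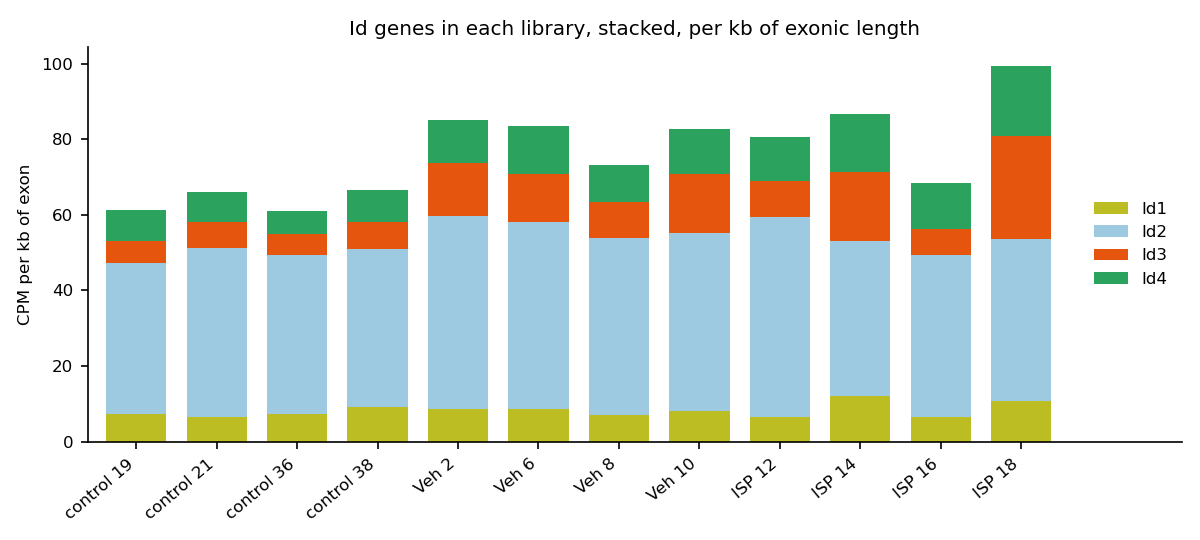
CPM per kb of exonic length of Id1, Id2, Id3 and Id4, stacked, in each of the 12 libraries. Id2 is the largest layer in every bar, and the layers of Id3 and Id4 are widest in ISP 14 and ISP 18, whose sums are the highest (up to 99.5).

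Id3 and Id4 were highest in ISP 14 and ISP 18, the libraries with the highest reactive astrocyte markers. This list (9 genes, among them Gfap, Vim and Lcn2) summed to 74.8 to 84.3 CPM in control, 182 to 779 CPM with Veh and 370.2 to 2961 CPM with ISP, and Lcn2 was at 0 in control libraries. On the log2 scale its mean was -1.71 to -1.20 in control, -0.16, -0.22, -0.50 and 0.94 in Veh 2, 6, 8 and 10, and -0.02, 2.69, 0.07 and 2.95 in ISP 12, 14, 16 and 18. The control libraries stood apart on this axis, so no correlation of the whole list is given without removing group means. With group means removed, Pearson r with the list was 0.908 for Id3 and 0.792 for Id4. Other lists came close for Id3, at 0.884 with activated microglia, 0.881 with microglia and 0.877 with oligodendrocyte precursors. Id4 had 0.751 with activated microglia. With the general astrocyte list r was 0.598 for Id3 and 0.498 for Id4, and with the endothelial list 0.133 and 0.118. With the reactive astrocyte list, r of Id3 and Id4 was 0.787 and 0.483 within Veh and 0.158 and 0.745 within control. Activated microglia markers were highest in the same pair, at 3.98 in ISP 14 and 3.93 in ISP 18, summing to 22.0 to 24.3 CPM in control, 25.4 to 78.6 with Veh and 24.5 to 398 with ISP, with Itgax, Lgals3 and Msr1 at 0 in some Veh libraries. Among the Veh libraries Id3 followed the order of the reactive astrocyte list, lowest in Veh 8, then Veh 6, Veh 2 and Veh 10. Not every value kept this order. ISP 16 had Id3 at 12.2 CPM, within the control range, with the reactive astrocyte list above all control libraries, and among the Veh libraries Id4 was highest in Veh 6, whose list was below that of Veh 2 and Veh 10. Microglia markers were also highest in ISP 14 and ISP 18, summing to 829 and 774 CPM, against at most 447 CPM in the other libraries. Fibroblast and meningeal markers summed to 60.7 and 124 CPM in this pair, but to 95.5 CPM in Veh 6 and 247 CPM in Veh 10. Endothelial markers, whose cells carry Id1 and Id3 too, lay between -0.19 and 0.25 in all 12 libraries, with sums of 283 to 318 CPM in control, 319 to 359 with Veh and 276 to 305 with ISP. Every Veh library was above every control and ISP library in this list. All 12 genes were higher with Veh than in control, 2 with an unadjusted p under 0.05 by edgeR. All 12 were lower with ISP than with Veh, 4 with an unadjusted p under 0.05, and edgeR called 0 in either comparison. The part of astrocytes, microglia, fibroblasts and endothelial cells in the Id3 and Id4 values was not tested. Of the 9 reactive astrocyte genes, 3 of 7 tested passed the test against control with Veh and 6 of 6 with ISP, all higher, and 0 of 9 between ISP and Veh by edgeR, where 7 had an unadjusted p under 0.05, DESeq2 called 1 and limma-voom 0.

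Over all 15126 genes tested between Veh and control, 337 passed an adjusted p under 0.1 in edgeR's quasi-likelihood test, which is 2.23%, and 9.67% had groups that did not overlap. Of the 10 members, 3 passed (Id3, Id4 and Bmp6) and 3 did not overlap (Id2, Id3 and Id4), all higher with Veh. DESeq2 called 4 there (Bmp6, Id2, Id3 and Id4) and limma-voom 2 (Id3 and Id4). Between ISP and control the shares of all genes were 10.2% and 11.9%, and 2 members passed (Id3 and Id4) while 3 did not overlap (Bmp4, Bmp6 and Id4), again all higher. DESeq2 called 3 (Bmp6, Id3 and Id4) and limma-voom 2 there. Between ISP and Veh, 0% of 15214 genes passed in edgeR, with 2334 at an unadjusted p under 0.05, 402 in DESeq2 and 0 in limma-voom, and 6.81% did not overlap. No member passed there in edgeR or limma-voom, 2 had an unadjusted p under 0.05 (Id4 higher and Nbl1 lower), DESeq2 called 1 (Nbl1), and the groups of all 10 overlapped. Since the members were chosen with these contrasts known, nothing is read from their counts or from their median fold changes, which follow. The median log2 fold change of the 10 was 0.26 for Veh against control, 0.21 for ISP against control and 0.11 for ISP against Veh, beside 0.02, -0.01 and 0.02 over all genes. The calls rested on few libraries, over all genes as well: against control, members called with Veh were 0 without control 21, control 36 or Veh 2, and 2 without control 19, control 38, Veh 6 or Veh 10, and members called with ISP were 1 without control 19, control 36, control 38, ISP 14 or ISP 18, and 3 without ISP 16. Over all genes, the calls with Veh were 0 without control 21, 3 higher and 3 lower without control 36, and 6 higher without Veh 2. Those with ISP were 420 without ISP 14 and 2283 without ISP 16. With 1 library left out, the log2 fold change of Veh against control ran from 0.91 to 1.15 for Id3 and from 0.52 to 0.67 for Id4. Between ISP and Veh, 1 member (Nbl1) was called without Veh 6, where 72 of all genes passed. The contrasts share libraries, the controls in both comparisons with control and the Veh libraries in both comparisons with Veh, so they are not independent of each other.

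**Figure D4:**
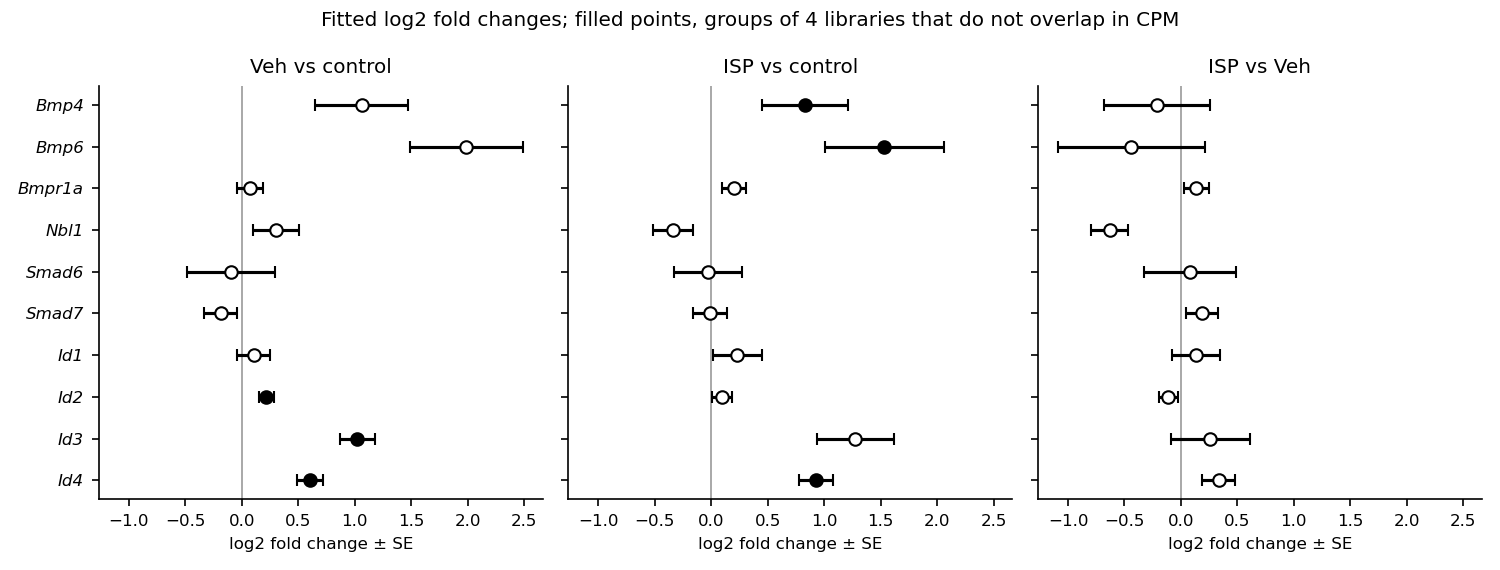
Fitted log2 fold change and SE of each gene in the 3 comparisons, with filled points where the 4 libraries of one group do not overlap those of the other in CPM. Id3 (1.02 and 1.28) and Id4 (0.61 and 0.93) stand to the right of 0 against control in both panels, the ligands have the widest errors, and between ISP and Veh all points are open, with Nbl1 farthest to the left of the genes with an SE under 0.2 (-0.63).

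The other genes set with the pathway were listed by role and not by how they moved, 56 in all, and each was in the table. The lists are broad, and some of their genes, such as Gdf11, Fstl3 and Skil, are not particular to the BMP branch. Between ISP and control, 45 were tested and 7 passed at an adjusted p under 0.1 by edgeR, 4 higher and 3 lower, where 10.2% of all genes passed, with a median log2 fold change over the 45 of 0.08. Rgma, a co-receptor that is also a repulsive guidance cue for axons, was at 47.0, 56.2, 45.5 and 45.2 CPM in control 19, 21, 36 and 38 and at 66.9, 69.4, 63.8 and 87.6 CPM in ISP 12, 14, 16 and 18. It rose in ISP with no overlap, by 0.57 ± 0.11 (SE) on the log2 scale (adjusted p = 0.0273 by edgeR). Hjv, the co-receptor hemojuvelin, fell from 2.41 ± 0.909 CPM in control to 1.02 ± 0.247 CPM with ISP (SD, n = 4), a log2 fold change of -1.24 ± 0.37 (adjusted p = 0.075 by edgeR). Its reads were few, 37 to 82 in a control library and 18 to 27 in an ISP library. Noggin (Nog), the classic secreted antagonist, was at 16.5, 14.3, 14.6 and 11.5 CPM in control and at 9.89, 8.92, 10.2 and 9.97 CPM with ISP. It fell by 0.55 on the log2 scale (SE 0.14, adjusted p = 0.047 by edgeR), with every ISP library below every control library. Fstl1, a secreted follistatin-like protein, rose by 0.47 ± 0.13 (adjusted p = 0.0555 by edgeR) and the ligand Gdf11 by 0.42 ± 0.11 (adjusted p = 0.0502 by edgeR). Among the Smads and their regulators, Smad5, which carries the BMP signal, rose by 0.42 ± 0.13 (adjusted p = 0.0897 by edgeR), and Skil, the repressor SnoN, fell by 0.36 (SE 0.11, adjusted p = 0.0919 by edgeR). Of the 6 tested target and partner genes (targets such as Tmem100 and the E proteins that pair with Id proteins) 0 passed by edgeR. An unadjusted p under 0.05 by edgeR was found for 2 of them, beside 3396 of all 15232 genes, and DESeq2 called 1. Tmem100 had the smallest p among them, at 0.44 ± 0.16 (adjusted p = 0.128 by edgeR). The count of 7 fell to 1 without ISP 14, to 2 without ISP 18, control 36 or control 38 and to 3 without control 19, and was 0 without both ISP 14 and ISP 18. Calls over all genes fell as well, from 1547 to 420 without ISP 14. They were 368 higher and 146 lower without ISP 18, and 71 higher and 19 lower without both. Without both, the log2 fold changes of the 7 were 0.44 for Rgma, -0.98 for Hjv, -0.50 for Nog, 0.30 for Fstl1, 0.28 for Gdf11, 0.24 for Smad5 and -0.43 for Skil, in the same directions.

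Between Veh and control, 0 of the 44 tested passed by edgeR, with 8 at an unadjusted p under 0.05, 2 called by DESeq2 over its own larger set of genes and 1 by limma-voom. Of all 15126 genes tested there, 2472 had an unadjusted p under 0.05 by edgeR. The smallest p of each role belonged to Gdf11 (0.30 ± 0.12, adjusted p = 0.237 by edgeR), the type II receptor Bmpr2 (-0.23 ± 0.09, adjusted p = 0.215 by edgeR), the follistatin-like Fstl3 (0.60 ± 0.26, adjusted p = 0.272 by edgeR), Skil (-0.45 ± 0.13, adjusted p = 0.115 by edgeR) and Msx1 (1.61 ± 0.68, adjusted p = 0.258 by edgeR), a homeobox target of BMP. Msx1 was at 1.25, 4.42, 0.272 and 2.50 CPM in Veh 2, 6, 8 and 10, against 0.257 to 1.14 CPM in control, so it was highest in the libraries with choroid plexus or meningeal markers, and without Veh 6 and Veh 10 its difference was 0.08 ± 0.76. The part of those cells in Msx1 was not tested. One gene was called without control 19 and 1 without Veh 6. The median over the 44 was 0.07.

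Between ISP and Veh, 0 of 46 passed by edgeR and by limma-voom. By edgeR, 4 higher and 4 lower genes had an unadjusted p under 0.05, beside 2334 of all 15214 genes. DESeq2 called 402 of all genes there, and 2 of these 46, the co-receptors Hjv and Rgma. Of the 46, 2 higher and 3 lower genes (Fstl3 among the lower) had groups that did not overlap, beside 6.81% of all genes. Hjv was at 2.85, 1.93, 3.04 and 2.59 CPM in Veh 2, 6, 8 and 10 and at 1.13, 0.740, 1.30 and 0.916 CPM in ISP 12, 14, 16 and 18, a log2 fold change of -1.35 ± 0.32 (adjusted p = 0.262 by edgeR). These values rest on few reads, 48 to 67 in a Veh library and 18 to 27 in an ISP library. Rgma was at 56.1, 56.5, 48.4 and 50.1 CPM with Veh against the ISP values above, a log2 fold change of 0.45 ± 0.11 (adjusted p = 0.262 by edgeR). In both genes the groups did not overlap. Bmp2 (0.58 ± 0.20, adjusted p = 0.274 by edgeR), the ligand closest to Bmp4, was higher in all 4 ISP libraries, and Nog (-0.33 ± 0.13, adjusted p = 0.284 by edgeR) lower in all 4, than in any Veh library. The part of cell types in the values of Hjv, Rgma, Bmp2 and Nog was not tested. Smad5 (0.38 ± 0.15, adjusted p = 0.291 by edgeR) and the target Hey1 (-0.23 ± 0.10, adjusted p = 0.295 by edgeR) had the smallest p of their roles and overlapped. The median over the 46 was 0.05.

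The sister branch of the family, TGF-beta and activin, signals through Smad2 and Smad3. Of its 10 tested genes, 2 passed between ISP and control by edgeR, beside 10.2% of all genes. The ligand Tgfb1 rose from 6.70 ± 1.16 to 16.1 ± 8.87 CPM (SD, n = 4), by 1.26 ± 0.34 (SE) on the log2 scale (adjusted p = 0.0543 by edgeR), and its receptor Tgfbr2 from 15.7 ± 2.34 to 35.8 ± 18.5 CPM, by 1.20 ± 0.31 (adjusted p = 0.0492 by edgeR). In ISP 12, 14, 16 and 18, Tgfb1 was at 9.12, 21.2, 8.01 and 25.9 CPM and Tgfbr2 at 23.2, 53.8, 16.8 and 49.4 CPM, so the same pair of libraries, ISP 14 and ISP 18, was highest as for Id1, Id3 and Id4. Without both, the log2 fold change was 0.35 ± 0.21 for Tgfb1 (adjusted p = 0.584 by edgeR) and 0.36 ± 0.17 for Tgfbr2 (adjusted p = 0.495 by edgeR). Activated microglia and reactive astrocyte markers were highest in the same pair, and their part in Tgfb1 and Tgfbr2 was not tested. Between Veh and control 0 of 10 passed by edgeR, with 4 at an unadjusted p under 0.05, beside 2472 of all 15126 genes. DESeq2 called 2, and Tgfbr2 had the smallest p (0.60 ± 0.17, adjusted p = 0.121 by edgeR). Between ISP and Veh 0 of 10 passed by edgeR, with 2 at an unadjusted p under 0.05, beside 2334 of all 15214 genes. DESeq2 called 1, the type I receptor Tgfbr1 (0.65 ± 0.22, adjusted p = 0.267 by edgeR).

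**Figure D5:**
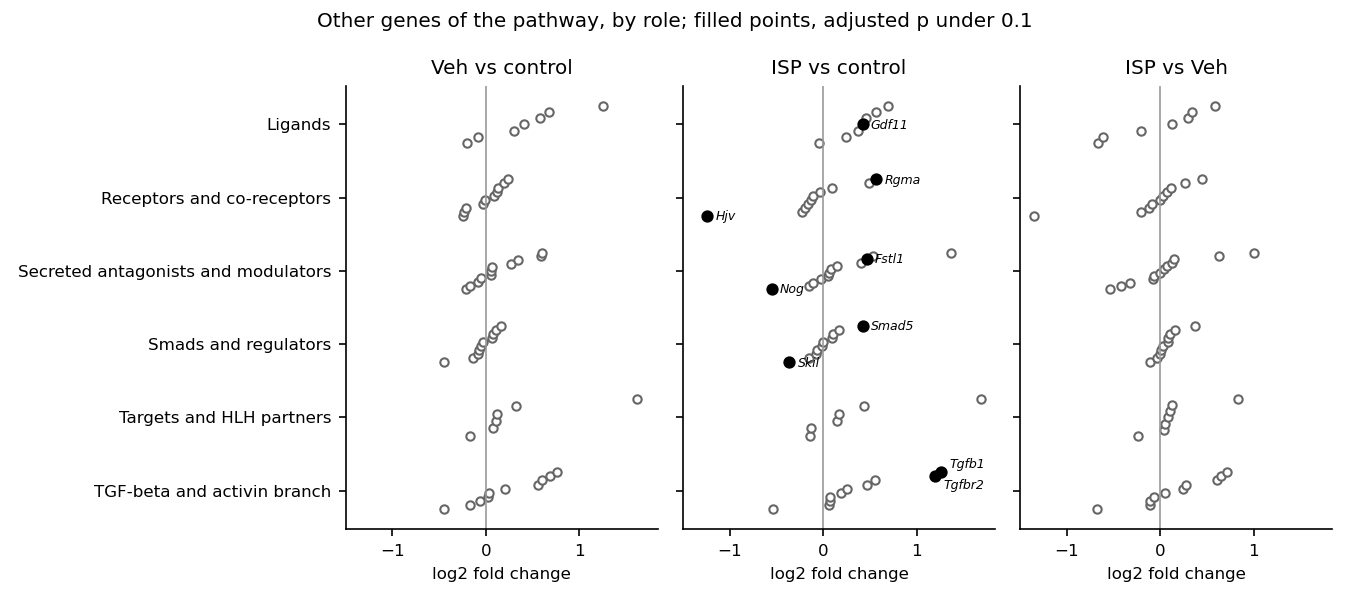
Log2 fold change of each tested gene of the 5 BMP lists and of the TGF-beta and activin list, by role, in the 3 comparisons, with filled and named points at an adjusted p under 0.1 by edgeR. Filled points occur only between ISP and control, where Rgma, Fstl1, Gdf11, Smad5, Tgfb1 and Tgfbr2 are higher and Hjv, Nog and Skil lower.

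The genes whose log2 CPM followed an Id gene or Nbl1 most closely over the 12 libraries were taken from 13506 genes with a mean of at least 1 CPM, as a description. For Id3 they included Ezr, which links the membrane to actin (Pearson r = 0.966), and S100a16 (0.938), and with group means removed r was 0.940 and 0.898. For Id4 they were 3 genes of astrocytes and complement, Gfap (0.954), Clu (0.952) and C4b (0.945), at 0.768, 0.802 and 0.749 with group means removed. For Nbl1 they were Arl6ip5 (0.953), Isyna1 (0.947) and AU021063 (0.945). Id2 was followed by Ttc41 (0.905), Cog7 (0.896) and Ppp6r2 (0.857), and Id1 by Ccdc86 (0.914), Tep1 (0.904) and Adipor1 (0.900). Among the members themselves, the closest pairs were Bmp4 with Bmp6 (0.916) and Id3 with Id4 (0.875). These values share the libraries and their depth, and the libraries that stand apart in a marker list weigh on them.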

How the data were processed

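Peri-infarct cortex of 12 mice was profiled by RNA-seq, and samples were grouped by the group label (control, Veh, ISP; 4 each). Per the labels and methods, the authors aligned reads to mm10 with HISAT2 and counted them with HTSeq at default settings against GENCODE, at versions the sources here do not give, and deposited raw read counts per gene symbol. The deposited counts were tested with edgeR 4.0.16 in R 4.3.3, separately on the 8 libraries of each comparison by the quasi-likelihood test after filterByExpr and TMM scaling, and p-values adjusted by Benjamini-Hochberg were called under 0.1. CPM were scaled by TMM over all 12 libraries, and log2 CPM used a prior count of 0.5. The 18 pairs of libraries within groups were checked for repeats and differed well beyond sampling noise (chi-square per degree of freedom 10.9 to 49.4). Fits were tested on simulated data.

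The members were chosen with earlier results of these data known. The lists were written with those results known too, but the pathway lists went by role, without a look at the values of their genes. Named were all members, the called genes of each pathway list (at most 4) or the 1 with the smallest p, the 3 most similar genes to each Id gene and Nbl1, and up to 3 markers of a cell type list. One gene that this rule takes is not reported here. In the count table Hfe2 is named Hjv. Marker lists are means of log2 CPM deviations, and relations with them used 100000 permutations of all 12 libraries across groups. Alternatives were DESeq2 1.42.0, limma-voom 3.58.1, other filters and scalings, an offset for GC content and length, and libraries left out, of which the removal of libraries with choroid plexus or meningeal markers, and of any library for the other pathway genes, was chosen after seeing the data. Positions are from GENCODE M21, and promoter sequences from RefSeq GRCm38.p6.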

Additional observations from a re-analysis of the deposited data

Results flagged for a closer look

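Among 57 groups of 4 libraries (19 genes in 3 groups), 6 had a library far from the other 3 by Dixon's criterion, and chance flags about 1 in 20 such groups. Bmp4 was at 3.49 CPM in ISP 18, against 1.399 to 1.52 in the other ISP libraries, and Bmp6 was at 9.90 CPM in the same library, against 1.83 to 2.83. ISP 18 also had the high choroid plexus markers, and their part in these values was not tested. Id2 was at 129 CPM in ISP 12, against 100.4 to 105 in the other ISP libraries. Id4 was at 23.5 CPM in control 36, against 30.9 to 31.7 in the other control libraries. In control 21, Rgma was at 56.2 CPM, against 45.2 to 47.0, and Smad5 at 24.2 CPM, against 17.8 to 18.5.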

How the results depend on the processing

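No paired analysis was possible because the groups share no replicate numbers. Of the values of single members under all alternatives, 472 kept direction and side of the threshold, 29 were weaker, 7 stronger and 22 reversed; the causes were not tested.

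Between ISP and Veh, genes called went from 0 to 402 with DESeq2 (members 1, pathway genes 2), to 31 without Veh 6 and ISP 18 (members 1) and to 8 without Veh 6, Veh 10 and ISP 18, and each library left out gave 0 to 72 genes, 0 to 1 members and 0 pathway genes. Without ISP 14 and ISP 18, Id1 (-0.33), Id3 (-0.66) and Smad6 (-0.0507) reversed. Id3 reversed without Veh 6 and ISP 18 (-0.18), and Id3 (-0.0285), Bmp4 (0.15) and Bmp6 (0.0687) without Veh 10 as well.

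Between Veh and control, genes called went from 337 to 510 with no filter (pathway genes 1), 1109 with DESeq2 (pathway genes 2), 28 with all 12 libraries in 1 fit (members 0), 18 at an adjusted p under 0.05 (members 1) and 34 without Veh 6 and Veh 10 (members 0, with Bmpr1a reversed at -0.10), and limma-voom called 1 pathway gene. Each library left out gave 0 to 461 genes, 0 to 3 members and 0 to 1 pathway genes.

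Between ISP and control, genes called went from 1547 to 691 at an adjusted p under 0.05 (members 1, pathway genes 2) and to 90 without ISP 14 and ISP 18 (members 1, pathway genes 0, with Id1 reversed at -0.23), and each library left out gave 420.0 to 2283 genes, 1 to 3 members and 1 to 9 pathway genes. Smad7 reversed to 0.0045 with at least 10 counts in every library.

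Left-out libraries moved the members' log2 fold changes as follows. Between ISP and Veh, the lowest and highest were -0.0437 and 0.26 for Id1, -0.16 and 0.51 for Id3, -0.65 and 0.29 for Bmp4 and -0.14 and 0.33 for Smad6. Between Veh and control they were -0.0069 and 0.14 for Bmpr1a and -0.35 and 0.11 for Smad6. Between ISP and control they were -0.10 and 0.0592 for Smad6 and -0.11 and 0.13 for Smad7. The lowest read counts of the members were those of Smad6, 12 to 51 a library.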
